A study of Homo sapiens with 18 samples.

Results

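The 39 genes described here are interferon-stimulated genes, the antiviral and immune-regulatory set that cells switch on after an interferon signal, and they were followed in MDA-MB-231 cells exposed to paclitaxel or epirubicin with or without hypoxia. The genes were chosen by symbol, with earlier results of these data known, and each gene is represented by the probe set that carries its symbol alone and was selected by the highest mean over all 18 arrays. Of the 39, 38 had such a probe set, STAT2 being the exception, and 35 gave enough signal to be tested. They are a small part of the 19775 genes named on the arrays, of which 11193 were tested. Since the probe set was picked by its mean level, the height of a gene's signal is a description and no finding.

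Type I and type III interferons bind cell surface receptors, the receptor-bound kinases JAK1 and TYK2 are activated, and a signal through STAT2 and IRF9 forms the factor ISGF3. ISGF3 binds the interferon-stimulated response element (ISRE) in the promoters of genes such as IFIT1, MX1, OAS1 and ISG15. IRF1, IRF3 and IRF7 bind related elements, so that parts of the same set can be switched on by cytosolic nucleic acid sensors. Interferon gamma acts mainly through a different element, the gamma-activated site (GAS), as in GBP1 and IRF1.

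MDA-MB-231 is a human triple-negative breast cancer line. Cells in serum-free medium were kept for 16 hours in normal air (normoxia, N) or at 1% oxygen (hypoxia, H), without drug, with 50 µM paclitaxel (tax), which stabilizes microtubules, or with 10 µM epirubicin (epi), an anthracycline that poisons topoisomerase II. The study asked how hypoxia changes the response of these cells to both drugs. RNA from whole cultures was measured on HG-U133 Plus 2.0 chips of Affymetrix, so fewer cells with a transcript and less transcript per cell cannot be told apart. Each of the 6 groups, the drug-free N and H, the paclitaxel groups N tax and H tax, and the epirubicin groups N epi and H epi, holds 2 arrays, and these 12 arrays carry every comparison. A further 6 arrays are named for one drug treatment in the title and for another in the source name, and they were left out of the comparisons. The study describes independent experiments of a single cell line, so p-values refer to the spread between cultures of this line.

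Values are GC-RMA signals on the log2 scale. A signal above 3.14, the presence threshold of the study on this scale, was counted as present, and a probe set was tested when it was present on both arrays of at least 1 condition. Differences were tested with limma over 24151 probe sets, with Benjamini-Hochberg adjustment over all of them and a threshold of 0.05. Between 41.4% and 42.6% of probe sets were present on an array. The line's markers VIM, CD44, EGFR, AXL, CAV1 and KRT18 were present on all 12 arrays, PGR and CDH1 on 0 of 12 and ESR1 on 1, while ERBB2 lay between 8.03 and 8.53. The leukocyte markers PTPRC, CD3E, CD14 and ITGAM were present on 0 arrays, and of the fibroblast and endothelial markers measured, COL1A1 and PECAM1 were present on all 12 and COL1A2, DCN, LUM, VWF and CDH5 on 0. COL1A1 lay between 6.63 and 7.79. PECAM1 had means of 5.95 in N and 6.96 in H, 3.85 and 3.92 with paclitaxel and 4.15 and 4.31 with epirubicin, and its part in the results was not tested. Of 9 tested hypoxia-response genes, 8 were higher in H than in N, 7 in H tax than in N tax and 0 in H epi than in N epi, and 9 were lower in H epi than in H. The difference between the 3′ and 5′ ACTB control probe sets lay between -0.31 and -0.21 on the epirubicin arrays and between -0.04 and 0.32 elsewhere, and its part in the results was not tested.

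**Figure D1:**
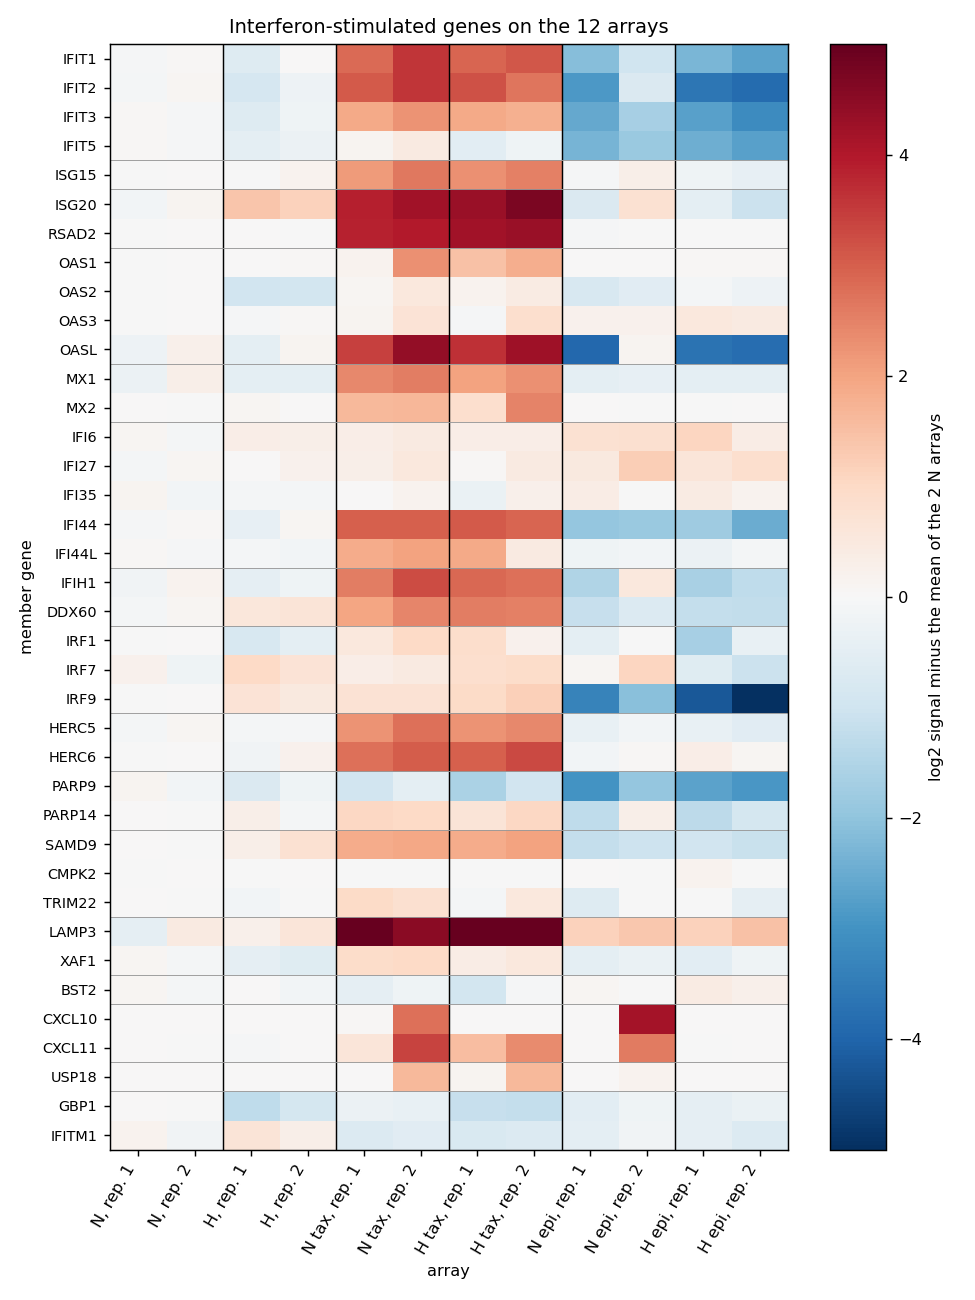
Signal of the 38 members with a probe set of their own (rows) on the 12 arrays (columns), as the log2 difference from the mean of the 2 N arrays. Red is higher and blue is lower, and thin lines mark a change of role between neighbouring rows. The 4 paclitaxel arrays are red for IFIT1, IFIT2, IFIT3, ISG15, the HERC genes and the helicase genes. The epirubicin arrays are blue for the IFIT genes, IRF9 and PARP9.

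Without drug in normoxia, 29 of the 35 tested members were present on both arrays. The other 6 (RSAD2, OAS1, MX1, MX2, IFI44L and CXCL11) entered the test only through paclitaxel arrays, so a rise in them was a condition of being tested. Of the 3 untested members, CMPK2, a mitochondrial nucleotide kinase, was present on 0 of 12 arrays. CXCL10, a chemokine for activated T cells, was present on 2 arrays, at 4.98 on N tax replicate 2 and 6.41 on N epi replicate 2. USP18, which removes ISG15 from proteins and damps receptor signaling, was present on 2 arrays, at 4.55 on N tax replicate 2 and 4.54 on H tax replicate 2.

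The promoters of these genes are shown first, because the ISRE is the sequence by which the group is usually recognized. RefSeq promoter windows of 250 bases before to 50 bases after the start (build GRCh38.p14) matched 31 of the 39 members by symbol. The ISRE core GAAANNGAAA, searched on both strands, was found in 20 of these 31 windows (64.5%) and in 3.65% of 27305 windows of the same length over all genes. The GAS core TTCNNNGAA, a palindrome that can share bases with an ISRE match, was found in 10 of 31 (32.3%) and in 7.88% of all. Among members that paclitaxel raised at both oxygen levels, 11 of 14 with a window held the ISRE core and 1 of 14 the GAS core. Among the other tested members the counts were 8 of 14 and 9 of 14. Of the genes named above as examples, IFIT1, MX1 and ISG15 held the ISRE core in their windows and OAS1 did not. IRF1 held the GAS core and GBP1 did not. These are counts of letter matches, without a test.

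The following stretches, in the gene's own direction, show in capitals the ISRE core on either strand where it lies wholly before the start, for 4 genes that paclitaxel raised (IFIT1, ISG15, IFI44 and DDX60) and for 2 that it did not raise although they carry the same letters (IFIT5 and GBP1). They lie at chr10:89392492-89392551 (IFIT1, plus strand), chr1:1013369-1013428 (ISG15, plus strand), chr1:78649729-78649788 (IFI44, plus strand), chr4:168318796-168318855 (DDX60, minus strand), chr10:89414508-89414567 (IFIT5, plus strand) and chr1:89065291-89065350 (GBP1, minus strand).
IFIT1: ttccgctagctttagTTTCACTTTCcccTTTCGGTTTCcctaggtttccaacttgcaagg
ISG15: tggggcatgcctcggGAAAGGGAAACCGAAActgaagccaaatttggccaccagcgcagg
IFI44: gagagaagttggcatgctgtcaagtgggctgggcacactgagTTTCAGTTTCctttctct
DDX60: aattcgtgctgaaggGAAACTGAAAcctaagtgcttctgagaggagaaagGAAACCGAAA
IFIT5: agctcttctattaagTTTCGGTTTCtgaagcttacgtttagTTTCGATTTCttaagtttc
GBP1: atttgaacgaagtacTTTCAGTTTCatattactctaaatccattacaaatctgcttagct

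Paclitaxel raised more than 50% of the tested members at either oxygen level. In normoxia 19 of 35 were higher and 1 was lower in N tax than in N, where 9.49% of all probe sets tested were higher and 13.8% were lower. In hypoxia 19 of 35 were higher and 1 was lower in H tax than in H, with 13% of all probe sets higher and 17% lower. Among the 29 members present on both N arrays, 15 were higher and 1 was lower in each of these comparisons. The median log2 difference of the 35 was 1.66 in normoxia and 1.42 in hypoxia, and over the 29 it was 0.94 and 1.17, against -0.01 and 0 over all probe sets. The rise covered the same 18 genes at both oxygen levels (94.7% of each list), with TRIM22 added in normoxia and, by the probe set used, OAS2 in hypoxia.

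**Figure D2:**
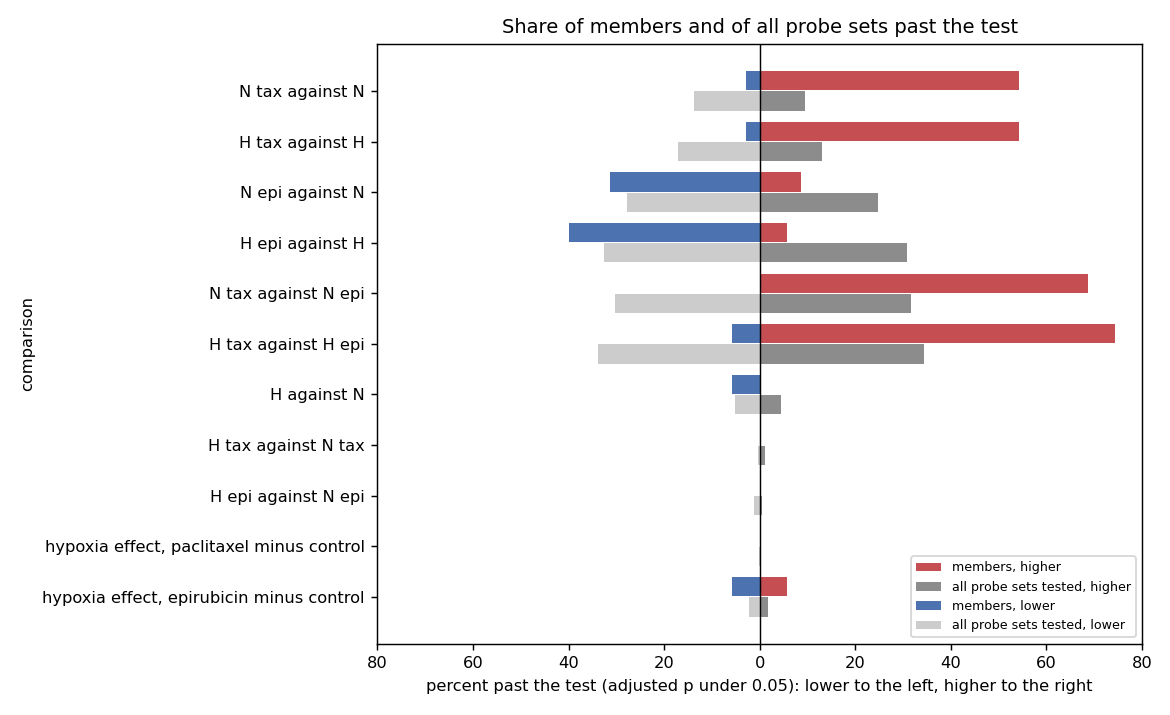
Percent of the 35 tested members (coloured bars) and of all 24151 probe sets tested (grey bars) past the limma test in each of the 11 comparisons, with higher to the right and lower to the left of 0. For N tax against N, 54.3% of the members and 9.49% of all probe sets were higher, while for N epi against N 31.4% of the members and 27.8% of all probe sets were lower.

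The IFIT proteins recognize foreign RNA by its 5′ end and block its translation, and 3 of the 4 rose. IFIT1 was at 10.61 and 10.74 on the N arrays and at 13.51 and 14.23 on the N tax arrays. In hypoxia it went from 10.03 and 10.71 on the H arrays to 13.59 and 13.78 on the H tax arrays. The lowest paclitaxel array was thus far above the highest control array, and the log2 difference was 3.20 in normoxia and 3.32 in hypoxia (SE 0.40, adjusted p = 0.000651 in hypoxia, limma). IFIT2 stood at 9.23 and 9.42 in N and at 12.37 and 12.90 in N tax. It rose by 3.31 in normoxia (SE 0.59, adjusted p = 0.00561) and by 3.47 in hypoxia (adjusted p = 0.00316, limma). IFIT3, already bright at 12.01 and 11.92 in N, rose to 13.86 and 14.21, a difference of 2.07, and by 2.25 in hypoxia. IFIT5 had 8.97 and 8.86 in N and 9.06 and 9.37 in N tax, and its differences of 0.30 and 0.03 did not pass the test.

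ISG15 is a ubiquitin-like protein, HERC5 is the ligase that attaches it to newly made proteins, and HERC6 is a close relative of HERC5. All 3 rose. ISG15 was at 11.56 and 11.60 in N and at 13.71 and 14.21 in N tax, and at 11.56 and 11.77 in H and at 13.88 and 14.12 in H tax, which gave differences of 2.38 and 2.34. HERC5 rose by 2.50 and 2.38 and HERC6 by 2.88 and 3.14 in normoxia and hypoxia. No paclitaxel array of these genes overlapped a control array.

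**Figure D3:**
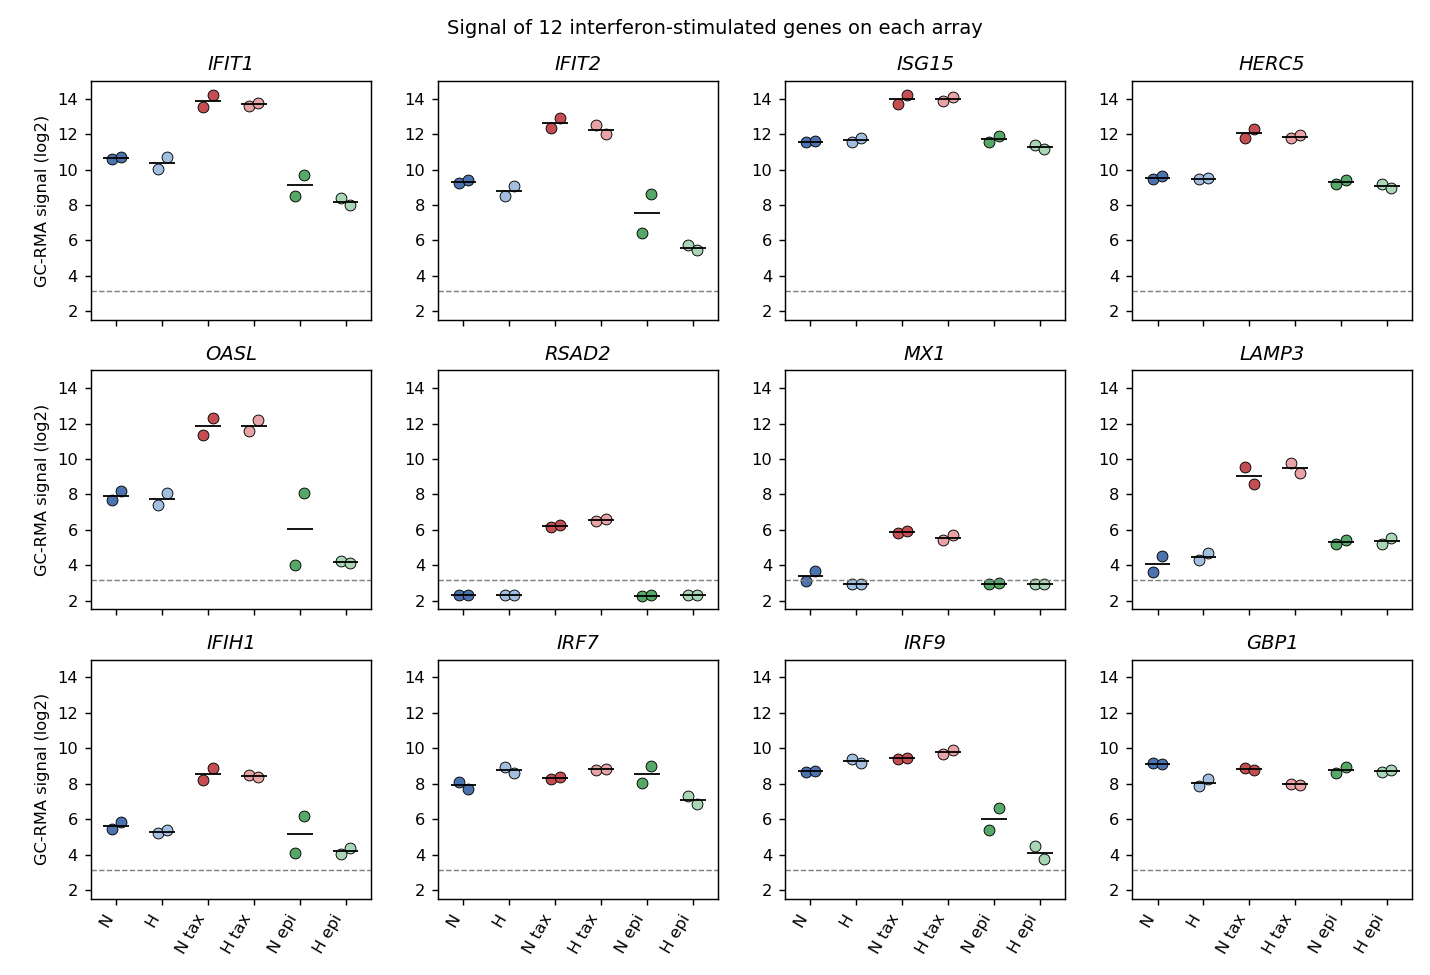
GC-RMA signal (log2) of 12 members on each of the 12 arrays, with points for arrays, bars for the mean of 2 arrays and a dashed line at the presence threshold of 3.14. RSAD2 crosses the threshold only on the 4 paclitaxel arrays, and OASL stands at 3.998 and 8.07 on the N epi arrays.

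RSAD2 (viperin) makes a chain-terminating nucleotide that stops viral RNA synthesis. It lay at 2.29 on all 4 drug-free arrays, a value below the presence threshold. On the paclitaxel arrays it was at 6.15 and 6.25 in N tax and at 6.51 and 6.61 in H tax. Measured against the presence threshold, this was at least 8.30-fold higher in normoxia and at least 10.7-fold higher in hypoxia. The dynamin-like GTPases MX1 and MX2 trap incoming viral nucleocapsids. Without drug MX1 was close to the threshold, while MX2 lay below it on every array, between 2.24 and 2.34. MX1 had 3.13 and 3.68 in N and 5.82 and 5.96 in N tax, and rose by 2.48 in normoxia and was at least 5.34-fold higher in hypoxia. MX2 was at least 1.69-fold higher in normoxia and at least 1.70-fold higher in hypoxia, where the H tax arrays spread from 3.10, below the threshold, to 4.71.

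The oligoadenylate synthetases sense double-stranded RNA and activate RNase L, while OASL lacks this enzyme activity and supports RIG-I signaling. OASL was at 7.68 and 8.16 in N and at 11.36 and 12.33 in N tax, and at 7.42 and 8.06 in H and at 11.58 and 12.18 in H tax. It rose by 3.92 in normoxia (SE 1.06, adjusted p = 0.0305) and by 4.13 in hypoxia (adjusted p = 0.0195, limma). The arrays of these comparisons did not overlap. The large standard error comes with a split elsewhere in the shared fit, as the N epi arrays stood at 3.998 and 8.07. Of 21 alternative settings, 9 lost the normoxia call and 6 the hypoxia call. The probe set used for OAS2 rose by 1.23 in hypoxia, from 6.12 and 6.16 to 7.25 and 7.49, and did not pass in normoxia, where it was at 7.08 on both N arrays and at 7.16 and 7.62 with paclitaxel. A second OAS2 probe set rose at both oxygen levels, by 2.53 in normoxia (adjusted p = 0.0186, limma), from 4.88 and 5.36 to 7.37 and 7.92, and by 3.02 in hypoxia. The third rose by 1.88 in hypoxia and did not pass in normoxia, at 1.42, so the probe sets of this gene gave unlike values. The effect in hypoxia was not shown to differ from that in normoxia, since no member passed the test of that difference for paclitaxel. OAS3 differed by 0.41 and 0.40 without passing the test. OAS1, below the threshold on the drug-free arrays, had paclitaxel means at least 1.33-fold higher in normoxia and at least 1.75-fold higher in hypoxia, which did not pass, and N tax replicate 1 held it at 2.49 while replicate 2 held it at 4.63.

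LAMP3, a lysosomal membrane protein best known from mature dendritic cells, had the largest fitted rise among the 35 tested members. Its arrays read 3.61 and 4.53 in N and 9.54 and 8.58 in N tax. They read 4.31 and 4.66 in H and 9.80 and 9.21 in H tax. The difference was 4.99 in normoxia (SE 0.39, adjusted p = 0.000212) and 5.02 in hypoxia (adjusted p = 0.000112, limma). ISG20, an exonuclease of single-stranded RNA, rose by 4.04 in normoxia (SE 0.42, adjusted p = 0.000613, limma), from 7.23 and 7.49 to 11.25 and 11.56, and by 3.22 in hypoxia. Its drug-free hypoxic arrays, 8.75 and 8.53, lay above the normoxic ones.

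Of the IFI genes, IFI44 rose by 2.97 and 3.13, from 8.20 and 8.34 to 11.24 and 11.24 in normoxia. IFI44L was at least 3.31-fold higher in normoxia and at least 1.96-fold higher in hypoxia. IFI6, IFI27 and IFI35 differed by between 0.02 and 0.41 and did not pass the test at either oxygen level. XAF1, a pro-apoptotic partner of XIAP, rose by 0.94 and 0.97. The RNA helicase IFIH1 (MDA5), a cytosolic sensor of long double-stranded RNA, went from 5.43 and 5.82 in N to 8.18 and 8.89 in N tax, a rise of 2.91, with 3.14 in hypoxia. The related helicase DDX60 rose by 2.20 and 1.94. SAMD9, a restriction factor of poxviruses, rose by 1.89 and 1.42.

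None of the 3 tested transcription factors of the pathway passed the test with paclitaxel. IRF9, the DNA-binding subunit of ISGF3, was at 8.67 and 8.72 in N and at 9.42 and 9.43 in N tax, and its differences of 0.73 in normoxia and 0.47 in hypoxia did not pass the test. IRF7 differed by 0.37 and 0.04 and IRF1 by 0.76 and 1.17, also without passing. The ADP-ribosyltransferases PARP9 (-0.71 and -0.78) and PARP14 (1.00 and 0.75), the tetherin BST2 (-0.32 and -0.45) and the GTPase GBP1 (-0.33 and -0.10) did not pass either. The chemokine CXCL11, below the threshold without drug, was at 2.90 and 5.67 on the N tax arrays, and its paclitaxel means, at least 2.21-fold and at least 2.14-fold higher, did not pass.

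IFITM1, a membrane protein that blocks virus entry, was the only tested member that passed the test as lower with paclitaxel. It was at 11.32 and 10.95 in N and at 10.46 and 10.58 in N tax, and fell by 0.61 (SE 0.18, adjusted p = 0.0427, limma). In hypoxia it was at 11.77 and 11.44 without and at 10.39 and 10.46 with paclitaxel, and fell by 1.18 (adjusted p = 0.00207, limma). The normoxia call was lost in 10 of 21 alternative settings and the hypoxia call in 1.

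**Figure D4:**
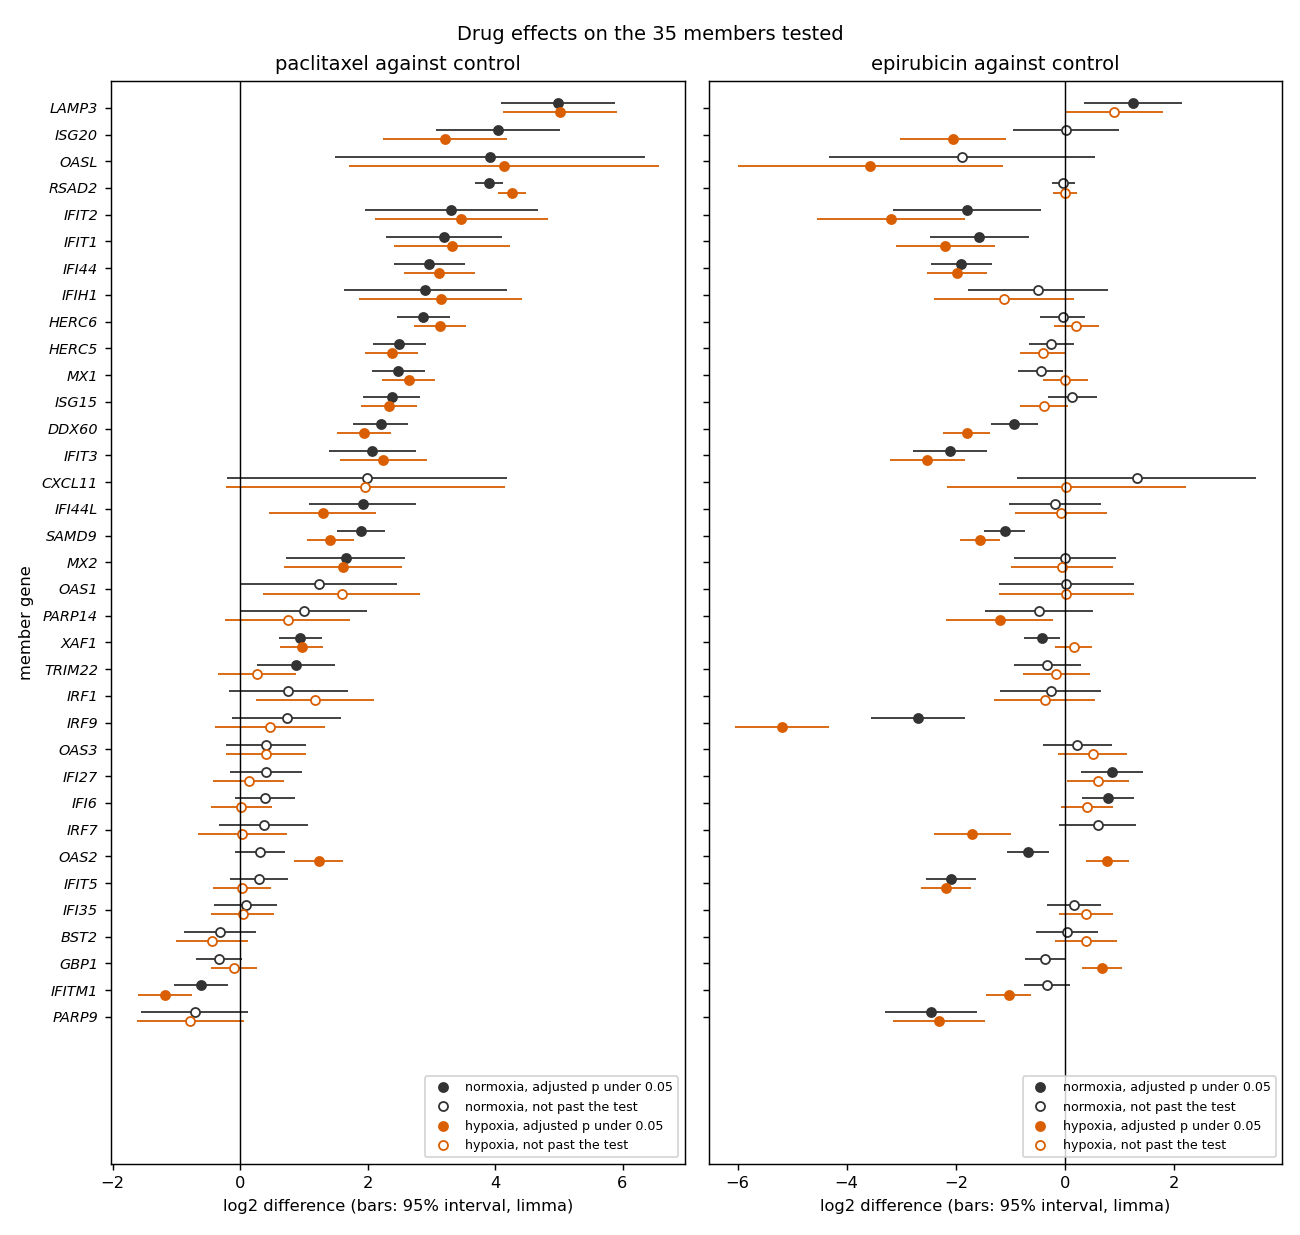
Log2 difference of each of the 35 tested members, with 95% intervals from limma, for paclitaxel (left) and epirubicin (right) against the drug-free control in normoxia (dark) and hypoxia (orange), with filled points for an adjusted p under 0.05. LAMP3 heads the left panel at 4.99 and 5.02, and IRF9 has the lowest point of the right panel at -5.19.

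Over all 35 tested members, the share that epirubicin lowered was close to that of all probe sets. In N epi 3 of 35 were higher and 11 lower than in N, where 24.7% of all probe sets were higher and 27.8% lower. In H epi 2 of 35 were higher and 14 lower than in H, where 30.9% were higher and 32.5% lower. The median log2 difference of the 35 was -0.33 in normoxia and -0.38 in hypoxia, against 0 over all probe sets. Some of the 35 lay near or below the presence threshold without drug, where a fall can hardly be seen. Among the 29 members present on both N arrays, 3 were higher and 11 lower in normoxia and 2 higher and 14 lower in hypoxia. The median log2 difference of these 29 was -0.37 in normoxia and -1.04 in hypoxia. Centring each array on its median adds 0.41 to every N epi difference and 0.54 to every H epi difference. The counts over the 35 then were 5 higher and 9 lower in normoxia and 12 higher and 13 lower in hypoxia. Quantile normalization gave 8 higher and 14 lower in hypoxia. The shares of all probe sets with these normalizations are not given here, so these counts cannot be read against the shares above. Of the lower members, 9 were the same at both oxygen levels, 81.8% of those in normoxia and 64.3% of those in hypoxia.

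IRF9 had the lowest log2 difference from the control with epirubicin among the tested members at both oxygen levels. In normoxia the control arrays read 8.67 and 8.72 and the epirubicin arrays 5.37 and 6.62. In hypoxia the control arrays read 9.39 and 9.20 and the epirubicin arrays 4.48 and 3.73. It fell by 2.70 in normoxia (SE 0.38, adjusted p = 0.000697) and by 5.19 in hypoxia (adjusted p = 1.8e-05, limma), with no overlap of arrays. IRF7, a factor that amplifies interferon production, was at 8.03 and 9.01 in N epi and at 7.31 and 6.86 in H epi. It fell by 1.70 in hypoxia and differed by 0.60 in normoxia, which did not pass. For IRF1, the probe set used differed by -0.27 and -0.38 without passing. A second IRF1 probe set was at 8.06 and 8.38 in N and at 2.91 and 7.66 in N epi, and at 7.25 and 7.23 in H and at 3.83 and 4.41 in H epi, so the probe sets of this gene gave unlike values.

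All 4 IFIT genes were lower with epirubicin at both oxygen levels. IFIT3 fell by 2.11 in normoxia (SE 0.30, adjusted p = 0.000737), from 12.01 and 11.92 to 9.40 and 10.31, and by 2.52 in hypoxia (adjusted p = 0.00015, limma). IFIT5, which did not pass the test with paclitaxel, fell by 2.10 in normoxia (SE 0.20, adjusted p = 0.000139, limma) and by 2.18 in hypoxia. IFIT1 fell by 1.57 and 2.19. IFIT2 was at 6.44 and 8.60 in N epi and at 5.72 and 5.46 in H epi, with log2 differences of -1.80 in normoxia and -3.19 in hypoxia (SE 0.59, adjusted p = 0.0016 in hypoxia, limma).

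PARP9, which with DTX3L enhances interferon signaling, fell by 2.46 in normoxia (SE 0.37, adjusted p = 0.000949) and by 2.31 in hypoxia (adjusted p = 0.000701, limma). IFI44 fell by 1.90 in normoxia (SE 0.24, adjusted p = 0.000469, limma) and by 1.98 in hypoxia. SAMD9 fell by 1.11 and 1.56 and DDX60 by 0.93 and 1.80. OASL fell by 3.56 in hypoxia (SE 1.06, adjusted p = 0.0171, limma), a call lost in 5 of 21 alternative settings. Its H epi arrays stood at 4.22 and 4.13. In normoxia its arrays at 3.998 and 8.07 left it short of the test. ISG20, PARP14 and IFITM1 fell in hypoxia by 2.05, 1.20 and 1.04 and did not pass in normoxia, while XAF1 fell by 0.42 in normoxia. ISG15, HERC5 and HERC6 differed from the controls by between -0.40 and 0.20 with epirubicin and did not pass.

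Members higher with epirubicin were few. LAMP3 was at 5.22 and 5.41 in N epi against 3.61 and 4.53 in N and rose by 1.24 (SE 0.39, adjusted p = 0.0264, limma). IFI27 rose by 0.86 (SE 0.25, adjusted p = 0.0183, limma) and IFI6, a small membrane protein of mitochondria and endoplasmic reticulum, by 0.78 (SE 0.21, adjusted p = 0.0137, limma), both in normoxia. Of 21 alternative settings for LAMP3, 6 lost the call and 1 turned its direction, and the calls of IFI27 and IFI6 were lost in 6 and 3 settings. In hypoxia OAS2 rose by 0.78 (SE 0.17, adjusted p = 0.00382, limma) and GBP1 by 0.67 (SE 0.16, adjusted p = 0.00578, limma). OAS2 fell by 0.68 in normoxia, where its N arrays were at 7.08 and its N epi arrays at 6.29 and 6.52. The other OAS2 probe sets did not pass with epirubicin, and the second differed by -1.37 in normoxia and by -1.18 in hypoxia, against the direction of the first in hypoxia. Both other GBP1 probe sets rose in hypoxia, by 0.87 and 1.06. Without N replicate 2 the normoxia count was 9 members, 1 higher and 8 lower.

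Set directly against each other, most tested members were higher with paclitaxel than with epirubicin. In normoxia 24 of 35 were higher and 0 lower in N tax than in N epi, with 31.7% of all probe sets higher and 30.3% lower. At an unadjusted p under 0.05 the member counts were 25 and 0, and 15850 of the 24151 probe sets lay under it (limma). In hypoxia 26 were higher and 2 lower in H tax than in H epi, with 34.3% higher and 33.9% lower over all probe sets. The medians were 2.11 and 1.94. Some of the 35 entered the test only through paclitaxel arrays, so a higher paclitaxel value was largely set by the filter for them. Among the 29 present on both N arrays, 20 were higher and 0 lower in normoxia and 21 higher and 2 lower in hypoxia. Their medians were 2.245 and 2.21. Median centring takes 0.36 and 0.50 from the differences between the drugs. The counts over the 35 were then 24 higher and 4 lower in normoxia and 23 higher and 6 lower in hypoxia. The shares of all probe sets after centring are not given here.

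OASL and IFIT2 had the largest log2 differences between the drugs among the tested members at both oxygen levels. OASL differed by 5.81 in normoxia (SE 1.06, adjusted p = 0.00168) and by 7.70 in hypoxia (adjusted p = 0.000265, limma), with H tax at 11.58 and 12.18 against H epi at 4.22 and 4.13. IFIT2 differed by 5.11 (SE 0.59, adjusted p = 0.000172) and 6.66 (adjusted p = 2.95e-05, limma). IFIT1 differed by 4.77 (SE 0.40, adjusted p = 4.15e-05) and 5.51 (adjusted p = 1.23e-05, limma). In normoxia IFI44 differed by 4.87 and IFIT3 by 4.18, and in hypoxia IRF9 differed by 5.67 and ISG20 by 5.27. IFIT5 differed by 2.396 and 2.21. The lower members in hypoxia were BST2, by -0.83 (SE 0.25, adjusted p = 0.0157, limma), and GBP1, by -0.77 (SE 0.16, adjusted p = 0.00255, limma). Of 21 alternative settings, 5 lost the BST2 call and 1 the GBP1 call.

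Without drug, the hypoxia effect passed the test for few of these genes and for few of all probe sets. Between H and N, 0 of 35 members were higher and 2 lower, with 4.41% of all probe sets higher and 5.11% lower. An unadjusted p under 0.05 was found for 9 members, 5 higher and 4 lower, and for 5724 of the 24151 probe sets (limma). GBP1 was at 9.16 and 9.12 in N and at 7.86 and 8.27 in H, and fell by 1.07 (SE 0.16, adjusted p = 0.0063, limma). OAS2 was at 7.08 on both N arrays and at 6.12 and 6.16 in H, and fell by 0.94 (SE 0.17, adjusted p = 0.013, limma). The arrays of both genes were clearly apart, yet without N replicate 2 neither passed the test. The other GBP1 probe sets also fell, by 1.01 and 1.15, while those of OAS2 differed by -0.29 and -0.38 and did not pass. ISG20 (1.28), IRF7 (0.86), DDX60 (0.60) and IRF9 (0.60) had higher means in hypoxia and did not pass. With quantile normalization 4 members were higher and 2 lower, and with median centring 1 and 2. The shares of all probe sets with these normalizations are not given here.

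In the presence of a drug the hypoxia effect passed the test for no member. Between H tax and N tax the counts were 0 higher and 0 lower (1.06% and 0.273% of all probe sets), with differences from -0.84 to 0.52. An unadjusted p under 0.05 was found for 5 members and for 3019 of the 24151 probe sets (limma). GBP1 was nearest, at 8.86 and 8.76 in N tax and 8.01 and 7.94 in H tax, with an adjusted p of 0.0509 (limma). Between H epi and N epi the counts were also 0 and 0 (0.381% and 1.13% of all probe sets). Here 7 members, 1 higher and 6 lower, and 3979 of the 24151 probe sets had an unadjusted p under 0.05 (limma). The hypoxia-response genes likewise had 0 of 9 past the test here. In this comparison the N epi arrays were unlike each other. N epi replicate 2 exceeded replicate 1 by a wide margin for OASL (8.07 and 3.998), IFIT2 (8.60 and 6.44), IFIH1 (6.16 and 4.10) and PARP14 (6.61 and 5.05). With N epi replicate 2 alone for its condition, 10 members were lower in H epi, and with replicate 1 alone, 0.

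Whether hypoxia acted differently with a drug was tested as the difference between hypoxia effects. For paclitaxel minus control 0 members were higher and 0 lower (0.0331% and 0.087% of all probe sets). An unadjusted p under 0.05 was found for 2 members and for 1913 of the 24151 probe sets (limma). For epirubicin minus control 2 were higher and 2 lower (1.73% and 2.23% of all probe sets). OAS2 had hypoxia effects of -0.94 without drug and 0.51 with epirubicin, a difference of 1.45 (SE 0.24, adjusted p = 0.0197, limma). GBP1 had effects of -1.07 and -0.03, a difference of 1.04 (SE 0.23, adjusted p = 0.0442, limma). IRF7 had effects of 0.86 and -1.44, a difference of -2.30 (SE 0.43, adjusted p = 0.0295, limma). IRF9 had effects of 0.60 and -1.89, a difference of -2.49 (SE 0.53, adjusted p = 0.0428, limma). For OAS2 the same difference was 0.19 (adjusted p = 0.929) and 0.02 (adjusted p = 0.997, limma) by its other probe sets, and for GBP1 it was 1.15, past the test, and 0.90, not past it. IRF7 and IRF9 have 1 probe set each, and their N epi arrays stood apart, at 8.03 and 9.01 for IRF7 and at 5.37 and 6.62 for IRF9. Of the 9 hypoxia-response genes, 8 were lower in this test and 0 higher, and the part of this in the members' values was not tested. Without N replicate 1, N replicate 2 or H replicate 1 the count was 0 members, and without N epi replicate 1 it was 11.

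**Figure D5:**
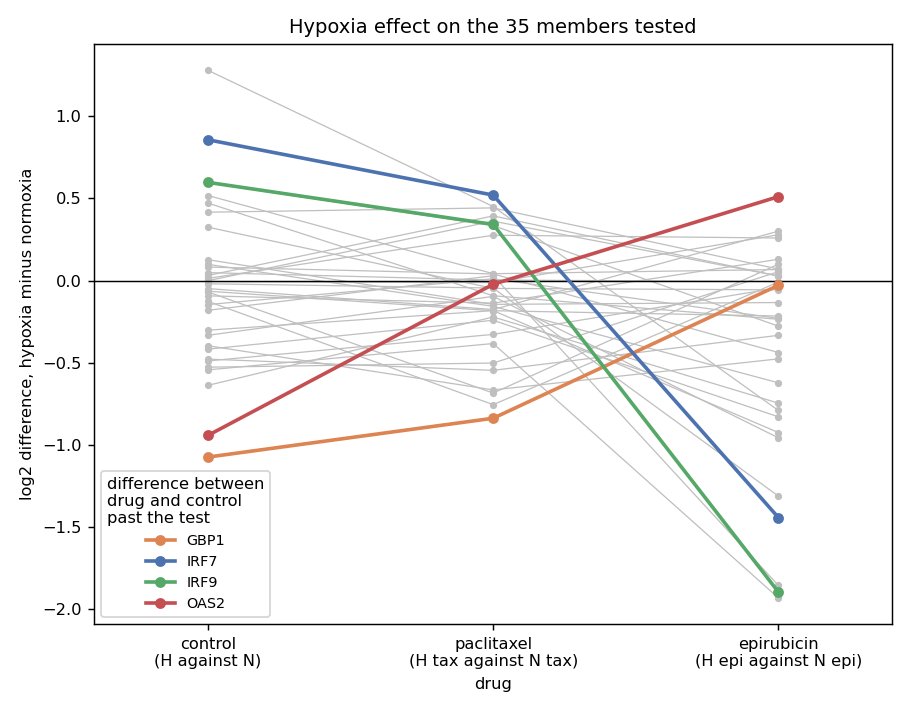
Log2 difference between hypoxia and normoxia for each of the 35 tested members without drug, with paclitaxel and with epirubicin, each line being 1 member. The coloured lines are OAS2, GBP1, IRF7 and IRF9, whose hypoxia effects with epirubicin passed the test of a difference from those without drug. With paclitaxel 0 members did so. The calls were lost in 4 of 21 alternative settings for OAS2, in 12 for GBP1 and in 13 each for IRF7 and IRF9.

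Other genes of the pathway were counted from lists of their own, for comparison with the members. Their counts are to be read against the shares of all probe sets, which with paclitaxel were 9.49% higher and 13.8% lower in normoxia and 13% and 17% in hypoxia, and with epirubicin 24.7% and 27.8% in normoxia and 30.9% and 32.5% in hypoxia. Of 9 interferon genes listed, 8 had a probe set, among them IFNB1, IFNG and IFNL1, and 0 of these were present on both arrays of any condition. Of 9 tested receptors, kinases and STAT factors, paclitaxel raised 1 (JAK1, 0.43 and 0.58) and lowered 1 at either oxygen level. The latter was IFNLR1, at least 1.16-fold lower in normoxia and at least 1.45-fold lower in hypoxia, with every paclitaxel array below the presence threshold. With epirubicin 4 were higher and 1 lower in normoxia and 4 higher and 4 lower in hypoxia, with IFNAR2 at 0.85 and 0.93.

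Among 15 tested nucleic acid sensors and adaptors, 3 were higher and 1 lower with paclitaxel in normoxia and 2 higher and 1 lower in hypoxia. Among the 14 present on both N arrays, 2 were higher and 1 lower in normoxia and 1 higher and 1 lower in hypoxia. DHX58 (LGP2), a helicase that regulates RIG-I and MDA5, was below the threshold without drug and with epirubicin. It entered the test only through paclitaxel arrays, so a rise in it was a condition of being tested. Against the threshold it was at least 2.24-fold higher in normoxia and at least 3.67-fold higher in hypoxia. The kinase EIF2AK2 (PKR) fell by 1.05 and 1.11. With epirubicin 0 were higher and 6 lower in normoxia and 0 and 7 in hypoxia. TBK1, the kinase that activates IRF3, differed by -2.66 and -4.12, and RIGI, the sensor of RNA with 5′ phosphates, by -2.28 and -3.57. Of 11 inhibitors of interferon signaling, 0 changed with paclitaxel in normoxia and 1 was lower in hypoxia, and 7 and 9 were lower with epirubicin, among them SOCS3 and IRF2. SOCS3 differed by -2.83 in normoxia and was at least 14.9-fold lower in hypoxia. IRF2 differed by -1.98 in normoxia and was also lower in hypoxia, where its H epi mean of 2.73 lay below the threshold.

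Beside the members, 33 other interferon-stimulated genes from a separate list were tested. With paclitaxel 4 were higher and 3 lower in normoxia and 9 higher and 4 lower in hypoxia. Among the 30 present on both N arrays, 2 were higher and 3 lower in normoxia and 6 higher and 4 lower in hypoxia. The chemokine CCL5 and EPSTI1 were below the threshold without drug and with epirubicin. They entered the test only through paclitaxel arrays, so a rise in them was a condition of being tested. CCL5 rose at least 6.79-fold in normoxia and at least 16.8-fold in hypoxia, and EPSTI1 at least 1.80-fold and at least 2.98-fold, while SAMHD1, which depletes deoxynucleotides, differed by -1.38 and -2.01. With epirubicin 7 were higher and 7 lower in normoxia and 7 higher and 10 lower in hypoxia. The median log2 difference with paclitaxel over the 30 of these genes present on both N arrays was 0.05 in normoxia and 0.05 in hypoxia. Over the 29 members present there it was 0.94 and 1.17. Both lists were chosen with earlier results of these data known, so this contrast is a description and was not tested. Of 14 tested genes of MHC class I antigen presentation, paclitaxel raised 5 in normoxia and 2 in hypoxia and lowered 0, with TAP1 at 0.78 and 0.81 and HLA-E at 0.65 and 0.52.

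Where a member had a further tested probe set, the pairs gave no opposite calls. There were 14 such further probe sets. With paclitaxel in normoxia 8 of the pairs had a call for the first probe set and 7 of these also for the other, in the same direction, and in hypoxia it was 10 of 10. With epirubicin it was 4 of 8 in normoxia and 8 of 11 in hypoxia. For H against N it was 2 of 4, and for the epirubicin hypoxia effect minus that of the control it was 1 of 4.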

How the data were processed

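The deposited values are log2 signals of 18 arrays, which the authors had normalized by GC-RMA. The study's methods name AffyProbeMiner chip definitions, while the probe sets carry the standard Affymetrix names. Gene names came from the table of the platform, updated to current RefSeq symbols: 41097 had 1 symbol, 1801 several (left unnamed) and 11777 were not listed, and 62 control probe sets were set aside. The members and lists were chosen with earlier results of these data known. No further normalization was applied. One limma fit (version 3.58.1, R 4.3.3) of 12 arrays, with 1 mean per condition, gave all comparisons by eBayes, two-sided, over 24151 of 54613 probe sets past the presence filter. It was tested on simulated data. A fold against a condition with every array below the presence threshold is a lower bound against that threshold. Full statistics are given for up to 5 rises and 5 falls past the test per comparison, and other genes are named from the lists by the same rule with up to 3 each way. A few arrays per condition limit the precision. The alternatives were adding the third arrays, placed either by title or by source name, leaving out single arrays, a replicate block, other presence filters, quantile normalization, median centring, a trended robust variance, a fit of the compared conditions alone and other probe sets of a gene. Promoter windows came from RefSeq (GRCh38.p14), and Python 3.11.15 with pandas 2.3.3 and matplotlib 3.10.9 was used.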

Additional observations from a re-analysis of the deposited data

Results flagged for a closer look

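The hypoxia effect with epirubicin differed from that without drug, by the test of the difference itself, for OAS2 (1.45), GBP1 (1.04), IRF7 (-2.30) and IRF9 (-2.49). For OAS2 the calls were lost in 4 of 21 alternative settings, for GBP1 in 12, and for IRF7 and IRF9 in 13 each. By the other probe sets of OAS2 the difference was 0.19 and 0.02, not past the test, and by those of GBP1 1.15, past it, and 0.90, not past it.

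Arrays outside the comparisons were set beside the drug-free arrays. On the third array titled N tax, 28 of 35 members lay above all 4 drug-free arrays, and on the third array titled H tax likewise 28, where 36.1% and 31.2% of all tested probe sets lay above. Among the 29 members present on both N arrays the counts were 22 and 22 (75.9% on either array). The drug named in the source name of these arrays is another one than in the title, and which is right was not tested.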

How the results depend on the processing

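The depth of the design is 2 arrays per condition. The counts below are of members alone. The shares of all probe sets in the same settings are not given, and those of the main fit do not apply to them. Adding the third arrays by title gave 25, 25, 16, 22, 27 and 30 members past the test for the drug comparisons (N tax, H tax, N epi and H epi against control, then the drugs against each other in normoxia and hypoxia), and 6, 4 and 2 for the hypoxia comparisons without drug, with paclitaxel and with epirubicin. Adding them by source name gave 0 in every comparison and turned the LAMP3 difference of N epi against N to -0.93. The cause was not tested. No presence filter gave 8 and a fit of the compared conditions alone gave 9 for N epi against N, against 14. Median centring gave 25 for H epi against H, against 16, and 2 for H epi against N epi. Quantile normalization gave 6, 1 and 1 for hypoxia without drug, with paclitaxel and with epirubicin. A trended robust variance gave 1 and 2 for hypoxia with paclitaxel and with epirubicin, and no presence filter gave 1 for hypoxia with paclitaxel. For the hypoxia effect with epirubicin minus control, against 4, no filter gave 1, the own-conditions fit 1 and the replicate block 1.

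Leaving out each array in turn, with a lone array assumed to vary like the others, gave 15 to 21 members for N tax against N, 17 to 21 for H tax against H, 9 to 16 for N epi against N, 14 to 18 for H epi against H, 23 to 27 and 23 to 29 for the drugs against each other, 0 to 5 for hypoxia without drug, 0 to 2 with paclitaxel, 0 to 10 with epirubicin, 0 to 0 for the paclitaxel difference of hypoxia effects and 0 to 11 for that of epirubicin. With the replicate block the counts were 18, 20, 14, 17, 26 and 29 for the drug comparisons, and it changed the call of 4 of 45 single-gene results. Deviations of replicate 1 from the condition means correlated between conditions from -0.18 to 0.30, over 0.1 in 3 of 15 pairs. These values cannot show whether arrays with the same replicate number came from the same experiment, and the main fit had no block. Quantile normalization, median centring and the trended variance kept all 45 single-gene calls.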

Other observations

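The 6 arrays whose title and source name disagree gave these values for the members. On the arrays titled N and H, 5 and 2 of 35 members lay above all 4 drug-free arrays, and 1 and 9 lay below them. Over all tested probe sets 20.3% and 10.9% lay above and 14.2% and 30.4% below. On the arrays titled N tax and H tax, 2 and 3 lay below, against 31.7% and 32.9% of all tested probe sets. On the arrays titled N epi and H epi, 5 and 5 lay above and 19 and 18 below, against 40.9% and 41% of all tested probe sets above and 38.4% and 39.1% below. Among the 29 members present on both N arrays, 17 and 18 lay below. RSAD2 was at 6.29 on the array titled N tax, at 6.52 on the array titled H tax and between 2.26 and 2.29 on the other 4. IFIT1 was at 13.60 and 13.84 on the arrays titled N tax and H tax, at 10.64 and 10.04 on those titled N and H, and at 8.65 and 8.40 on those titled N epi and H epi.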
